A study of Mus musculus with 6 samples.

Results

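The cell cycle cyclin genes examined here are Ccna1, Ccna2, Ccnb1, Ccnb2, Ccnd1, Ccnd2, Ccnd3, Ccne1 and Ccne2, 9 mouse genes of the A, B, D and E classes of cyclins. The B class also holds Ccnb3, which was not among them and is counted with other cyclins at the end. The 9 were chosen by name, out of 21924 protein-coding gene symbols in the annotation, and all 9 were found in it. H3K4me3 and H3K27me3 were measured by ChIP-seq, which sequences the DNA bound to histones carrying a given mark, in wt colonic organoids of C57BL/6 genotype. The organoids, epithelial cells grown in 3-dimensional culture, were either left without TNFα (wt) or treated with 40 ng/ml TNFα, an inflammatory cytokine, for 3 weeks (wt+TNFα). Each condition had 1 H3K4me3 library, 1 H3K27me3 library and 1 input library, so no difference below has a replicate check, an error or a p-value, and values are set side by side for these libraries only. Organoids are an epithelial culture without the immune and stromal cells of the colon.

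Cyclins bind and switch on cyclin-dependent kinases, and each class does so in its own stretch of the cell cycle. D cyclins respond to growth signals in G1, E cyclins act at the entry into S phase, A cyclins act through S phase and G2, and B cyclins drive entry into mitosis. H3K4me3 marks the start sites of genes that are active or ready to be transcribed, while H3K27me3 is laid down by Polycomb complexes over silent genes, and the colonic epithelium renews itself by constant division of its crypt cells.

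Promoter sequences were available from RefSeq (build GRCm38.p6) for 5 of the 9 cyclins, Ccna1, Ccnb1, Ccnb2, Ccnd3 and Ccne1, in 6 windows, since Ccnd3 has 2 starts. Of each window, which runs from 250 bases upstream of the RefSeq start to 50 downstream, the upstream bases outside annotated exons of the gene are printed here for 3 genes. The B cyclins are shown because their H3K4me3 peaks grew on both sides, and the starts of Ccnd3 because only 1 of them carried a peak. Peaks also grew on both sides at Ccnd1, Ccnd3 and Ccne2. Capitals mark a CCAAT box, the binding sequence of the factor NF-Y, or the sequence TTTGAA of the cell cycle homology region, on either strand.

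Ccnb1, chr13:100786571-100786736, minus strand: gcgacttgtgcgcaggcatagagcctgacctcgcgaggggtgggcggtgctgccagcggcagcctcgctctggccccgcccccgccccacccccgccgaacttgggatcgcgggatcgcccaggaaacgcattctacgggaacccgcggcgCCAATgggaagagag
Ccnb2, chr9:70421555-70421804, minus strand: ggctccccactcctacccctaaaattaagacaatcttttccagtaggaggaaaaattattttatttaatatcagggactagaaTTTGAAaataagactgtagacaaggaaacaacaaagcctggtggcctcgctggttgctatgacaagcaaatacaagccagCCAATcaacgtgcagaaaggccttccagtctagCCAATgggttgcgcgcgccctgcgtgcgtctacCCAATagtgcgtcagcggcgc
Ccnd3 start with a peak, chr17:47593217-47593435, plus strand: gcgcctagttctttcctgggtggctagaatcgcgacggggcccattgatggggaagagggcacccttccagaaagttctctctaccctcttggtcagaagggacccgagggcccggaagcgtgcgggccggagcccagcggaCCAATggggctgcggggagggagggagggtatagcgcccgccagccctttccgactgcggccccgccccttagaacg
Ccnd3 start without a peak, chr17:47504801-47505050, plus strand: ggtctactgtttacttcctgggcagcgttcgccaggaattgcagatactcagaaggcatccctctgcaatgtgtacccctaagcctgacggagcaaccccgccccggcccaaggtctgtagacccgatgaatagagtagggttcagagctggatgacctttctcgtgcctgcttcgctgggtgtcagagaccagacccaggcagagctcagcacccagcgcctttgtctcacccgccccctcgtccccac

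In the 250 upstream bases, CCAAT on either strand was present in 4 of the 6 windows, with 1 match at Ccna1, 2 at Ccnb1, 3 at Ccnb2 and 1 at the marked start of Ccnd3. Of all 32851 promoter windows, 33.8% held it. The matches of Ccnb2 began 87, 54 and 21 bases before the RefSeq start, and those of Ccnb1 99 and 67 bases before it, the latter inside an exon of another transcript and therefore not printed. TTTGAA was present in the Ccnb2 window alone, 167 bases upstream, against 16% of all windows. The E2F-like sequence TTTNNCGC was present in 0 of the 6, against 4.28%. The motifs did not overlap each other, and a match is a description of the letters only.

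The windows differed in CpG content. The marked start of Ccnd3 held 28 CpG in 300 bases, and its unmarked start 15. Ccne1 held 41, Ccna1 35, Ccnb1 29 and Ccnb2 19, against a median of 7 over all windows. The Ccna1 window was thus rich in CpG, with more than 93% of all windows, although it is the cyclin at which no H3K4me3 peak was called.

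The libraries were first checked against the epithelial label. H3K4me3 peaks lay at the promoters of 10 of 10 colonic epithelial markers, including Epcam, Cdh1 and Cdx2, in both conditions. None of the 5 leukocyte, 5 fibroblast and muscle, 3 endothelial or 2 neural markers carried one in either condition. The wt and wt+TNFα lists held 11552 and 11894 H3K4me3 peaks, covering 17.8 and 19.5 Mb of the autosomes. For H3K27me3 the lists stood apart, with 30594 and 60540 peaks covering 101 and 228 Mb of the autosomes, and 0.597 and 74.7 Mb of the X chromosome. A further 3 H3K4me3 peaks lay on the Y chromosome in wt and 0 in wt+TNFα. The labels give neither the animal nor the sex behind each culture. Whether the cultures came from mice of the same sex was not tested, so the effect of TNFα and a difference between source animals cannot be told apart in any comparison of the conditions. All 9 cyclins lie on autosomes.

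A promoter was taken as 1000 bp on each side of every annotated transcript start. An H3K4me3 peak overlapped the promoter of 8 of the 9 cyclins in wt and of the same 8 in wt+TNFα. Over all protein-coding genes the share was 50.5% in wt and 51.2% in wt+TNFα. Ccna1 was the exception, with its nearest H3K4me3 peak 56870 bp from the start in wt and 56824 bp in wt+TNFα. An H3K27me3 peak overlapped the promoter of 1 of 9 cyclins, Ccna1, in wt and in wt+TNFα, against 21.7% and 29.5% of protein-coding genes. None of the 9 promoters carried both marks.

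**Figure D1:**
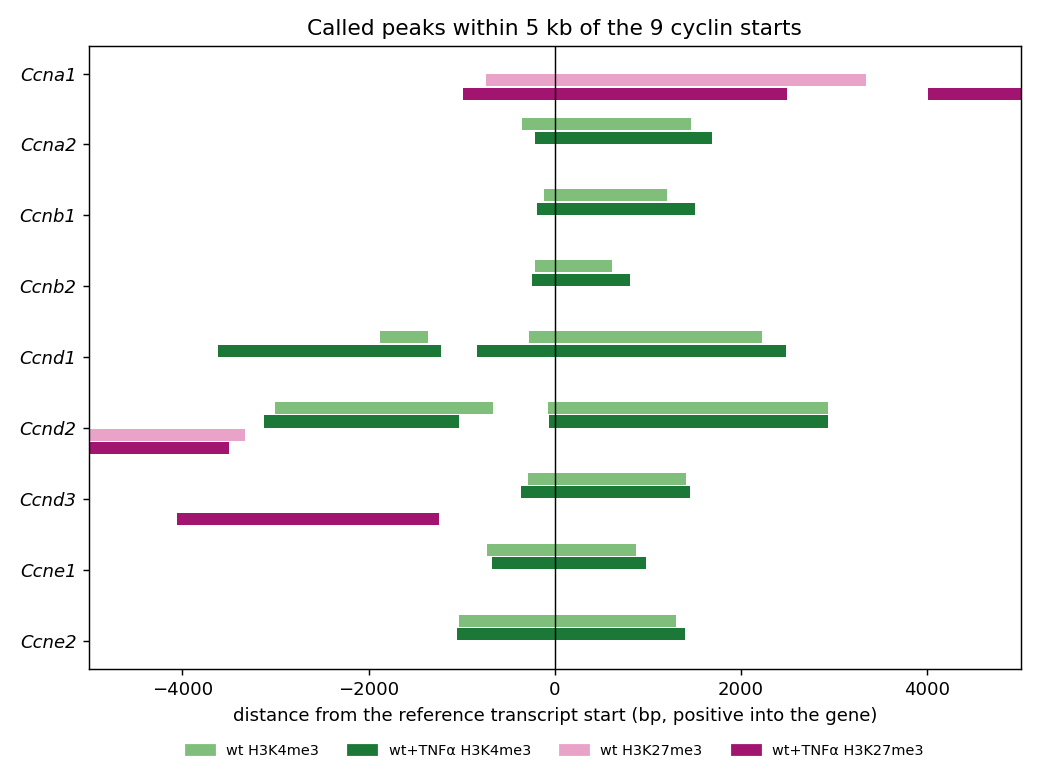
Called peaks of the 4 lists as bars within 5000 bp of the reference start of each cyclin, with distance in bp and positive values running into the gene; light bars are wt and dark bars wt+TNFα. H3K4me3 covered the start of 8 cyclins in both conditions, Ccna1 carried H3K27me3 alone, and the upstream H3K4me3 peak of Ccnd1 was 523 bp wide in wt and 2393 bp in wt+TNFα.

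Bases under a peak of only 1 condition were found by subtracting the lists from each other. By base, H3K4me3 was gained in wt+TNFα at 7 of the 8 marked cyclin promoters, beside 79.9% of the protein-coding genes with a wt+TNFα peak. It was lost at 3, Ccna2, Ccnd2 and Ccne1, beside 41.9% of the genes with a wt peak. Ccna2 and Ccne1 both gained and lost bases, and Ccnd2 lost bases only. A count of gained promoters thus lay near that of all genes, and the cyclins are better described by how far and on which side each peak moved.

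For that, the width of the peak at the reference start was measured, which is the start of a principal transcript of the gene, together with the distance from that start to each peak edge. The peak was wider in wt+TNFα at 7 of 8 cyclins, and over the 10441 protein-coding genes with such a peak in both lists it was wider at 75.9%. The median change was 122 bp over the cyclins and 105 bp over all those genes. An increase of at least 200 bp was seen at 3 of 8 cyclins, Ccnb1, Ccnb2 and Ccnd1, beside 28.2% of all genes.

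**Figure D2:**
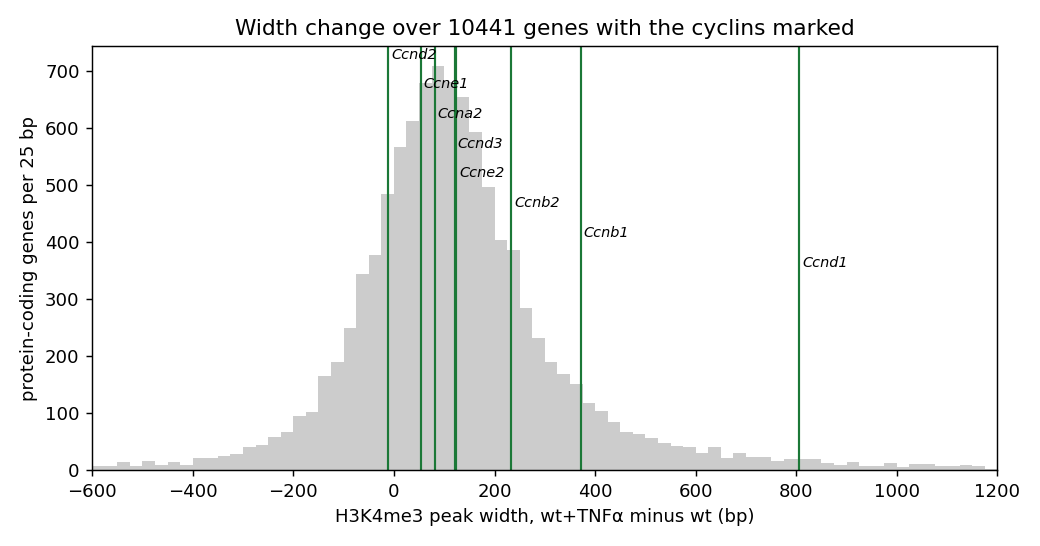
Number of protein-coding genes (y axis, per 25 bp) by the change in H3K4me3 peak width from wt to wt+TNFα (x axis, bp), with each of the 8 marked cyclins as a vertical line; genes beyond −600 or 1200 bp are not drawn. Ccnd1 lay at 806 bp, Ccnb1 at 371 bp and Ccnb2 at 233 bp, and the other 5 lay between −11 and 124 bp.

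The edges did not move alike. The downstream edge reached further into the gene in wt+TNFα at 8 of 8 cyclins, beside 72.7% of all genes, with a median shift of 151 bp over the cyclins and 62 bp over all genes. At Ccnd2 this shift was 6 bp, and the count of downstream shifts was chosen after seeing the data. The upstream edge lay further out at 5 of 8, beside 67.3% of all genes, with medians of 32 and 35 bp. The downstream shift was the larger at 6 of 8 cyclins, all but Ccnd1 and Ccnd3, beside 56.5% of all genes.

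**Figure D3:**
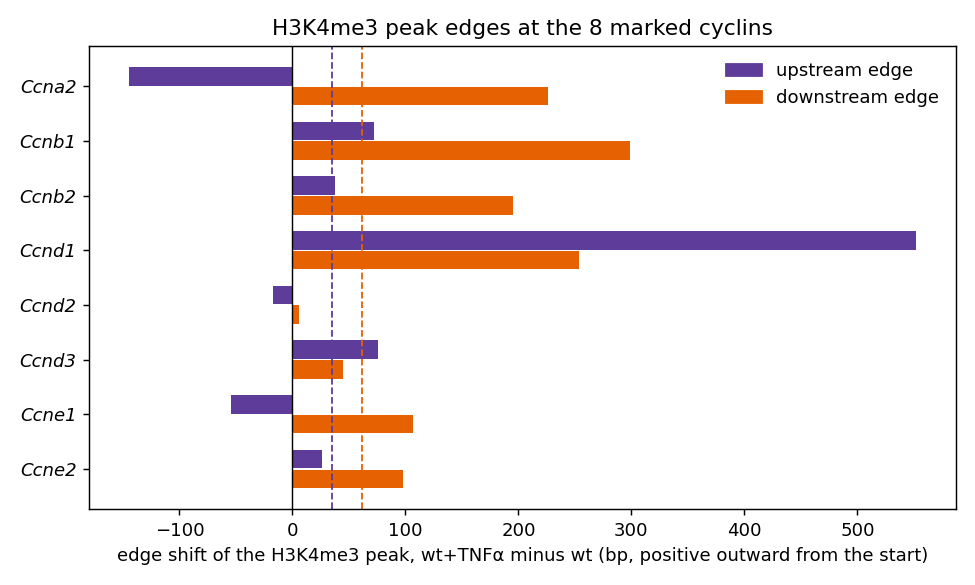
Shift of the upstream (purple) and downstream (orange) edge of the H3K4me3 peak at each marked cyclin, wt+TNFα minus wt in bp, positive when the edge lay further from the start; dashed lines are the medians of 10441 genes, 35 bp upstream and 62 bp downstream. The downstream bars run from 6 bp at Ccnd2 to 299 bp at Ccnb1, and Ccnd1 has an upstream bar of 552 bp.

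Of the A cyclins, Ccna2 encodes the A cyclin of dividing somatic cells and Ccna1 one best known from male germ cells. Ccna2 lies on chr3:36564865-36572150, minus strand. Its peak measured 1817 bp in wt and 1898 bp in wt+TNFα, a difference of 81 bp. The peak shifted as a whole into the gene, because the upstream edge drew in from 353 to 208 bp before the start while the downstream edge moved from 1463 to 1689 bp after it. Of all genes, 2.65% had an upstream shift below that of −145 bp, and 87.3% had a downstream shift below that of 226 bp. All 226 bases gained lay in an annotated exon of at least 1 transcript.

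The B cyclins activate Cdk1 for mitosis. Ccnb1, on chr13:100778650-100786570, minus strand, encodes the main mitotic cyclin, and its peak measured 1321 bp in wt and 1692 bp in wt+TNFα. Ccnb2, on chr9:70407692-70421547, minus strand, encodes a related cyclin, and its peak measured 821 and 1054 bp. The pair had the narrowest peaks of the 8 cyclins in wt, yet the width grew at both by similar proportions, 28.1% and 28.4%. At Ccnd1 it grew by 32.1%. Most of the growth was downstream, 299 bp at Ccnb1 and 195 bp at Ccnb2, and these bases were intronic in both genes. Upstream the edges moved out by 72 and 38 bp. At Ccnb1 the edge moved from inside the printed stretch to past its far end, and at Ccnb2 it stayed inside. Among all genes, 89.1% had a smaller width change than Ccnb1, and 77% a smaller one than Ccnb2.

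The D cyclins partner Cdk4 and Cdk6 in G1, and their H3K4me3 peaks did not change alike. Ccnd1 lies on chr7:144929931-144939925, minus strand, and encodes cyclin D1, a well-known target of growth and Wnt signalling. Its peak measured 2510 bp in wt and 3316 bp in wt+TNFα, and 97.3% of all genes had a smaller change. The upstream edge moved from 281 to 833 bp before the start and the downstream edge from 2228 to 2482 bp after it.

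A separate H3K4me3 peak stood further upstream of Ccnd1 in both lists. In wt it spanned chr7:144941228-144941750, or 523 bp at a fold enrichment of 7.99, and in wt+TNFα it spanned chr7:144941095-144943487, or 2393 bp at 15.5. It covered bases 1359 to 1881 upstream of the start in wt, and 1226 to 3618 in wt+TNFα. No annotated part of Ccnd1 lies there. All H3K4me3 bases within 5000 bp of the Ccnd1 start came to 3033 in wt and 5709 in wt+TNFα. This gain of 2676 bp was matched or exceeded at 7 of 10441 genes, Ccnd1 included, and the 95th percentile over all genes was 624 bp. By the same measure H3K4me3 increased at 7 of 8 cyclins, beside 76% of all genes.

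Ccnd2, on chr6:127125162-127152193, minus strand, encodes cyclin D2 and went the other way. The peak at its principal start was the widest of the 8 in wt and measured 3011 bp there and 3000 bp in wt+TNFα. A second, weaker peak covered a longer transcript start further upstream and measured 2339 bp in wt and 2092 bp in wt+TNFα, at fold enrichments of 5.81 and 9.36, respectively. Within 5000 bp of the principal start, the H3K4me3 bases fell by 258, from 5350 to 5092, and only 3.67% of all genes had a lower value. The bases lost were 367 bp from the inner edge of the upstream peak and 17 bp from the main peak, both intronic. The bases gained were 120 bp at the outer edge of the upstream peak and 6 bp at the downstream edge of the main peak, and the difference within the window is the net of these. The promoter region is shared with an antisense gene, 9330179D12Rik, so the peak cannot be assigned to Ccnd2 alone.

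Ccnd3, on chr17:47505051-47599691, plus strand, encodes cyclin D3. Its annotated starts fall into 2 groups that lie far apart in the gene. The peak lay at the downstream group, whose sequence is printed above with 28 CpG, and measured 1700 bp in wt and 1821 bp in wt+TNFα. At the upstream group no H3K4me3 peak was called in either list. The nearest in wt, chr17:47501220-47502527, lay outside the gene, before its first annotated base at 47505051. From the marked start it spanned bases 92250 to 90943 upstream. With that single upstream start taken for the gene, Ccnd3 would have been counted as unmarked.

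The E cyclins activate Cdk2 for S phase. Ccne1, on chr7:38097984-38107534, minus strand, had a peak of 1592 bp in wt and 1645 bp in wt+TNFα. Its upstream edge drew in from 724 to 670 bp while the downstream edge moved from 867 to 974 bp, the same pattern as at Ccna2 but smaller. Ccne2, on chr4:11191351-11204779, plus strand, had a peak of 2322 bp in wt and 2446 bp in wt+TNFα, and its edges moved out by 26 bp upstream and 98 bp downstream. Both width changes, 53 and 124 bp, lay in the middle of the distribution, with 36% and 54.9% of all genes below them.

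Fold enrichment, the ratio of the ChIP signal of a peak to the local background derived from the input, was set by the authors' peak caller for each library on its own, so it is best read as a rank within its list. At Ccnb1 it was 23.2 in wt and 41.9 in wt+TNFα, which 46.2% and 86% of the peaks in the respective list did not reach. At Ccnb2 the values were 18.6 and 29.6, with 34.5% and 56.8% of peaks below, and at Ccna2 30.1 and 40.3, with 63.8% and 83% below. The change in rank, in percentage points of peaks below, was 39.9 at Ccnb1, 22.3 at Ccnb2 and 19.2 at Ccna2. The rank was higher in wt+TNFα at 6 of 8 cyclins, beside 54.1% of the 10441 genes, whose changes had a median of 1.21 points and ran from −27.1 at the 5th to 30.7 at the 95th percentile. The lists differed in range, since their highest peaks reached 158 (wt) and 68.9 (wt+TNFα).

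The D cyclins were not uniform in this measure either. Ccnd1 had 29 in wt and 33.8 in wt+TNFα, with 61.1% and 68.3% of peaks below. Ccnd2 had 41.9 and 29.5, with 87% and 56.7% below, and Ccnd3 had 28.2 and 23.7, with 59.2% and 41.9% below. The rank was lower in wt+TNFα at Ccnd2 and Ccnd3, with changes of −30.3 and −17.3 points, and 3.4% and 12.1% of all genes had a lower value. The second, weaker peak of Ccnd2 ranked above 3.39% of peaks in wt and 12.9% in wt+TNFα. The ranks of Ccne1, with fold enrichments of 36.5 and 40.3, and Ccne2, with 21.2 and 25.1, changed less, from 77.6% to 82.8% and from 40.9% to 45.5% of peaks below.

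**Figure D4:**
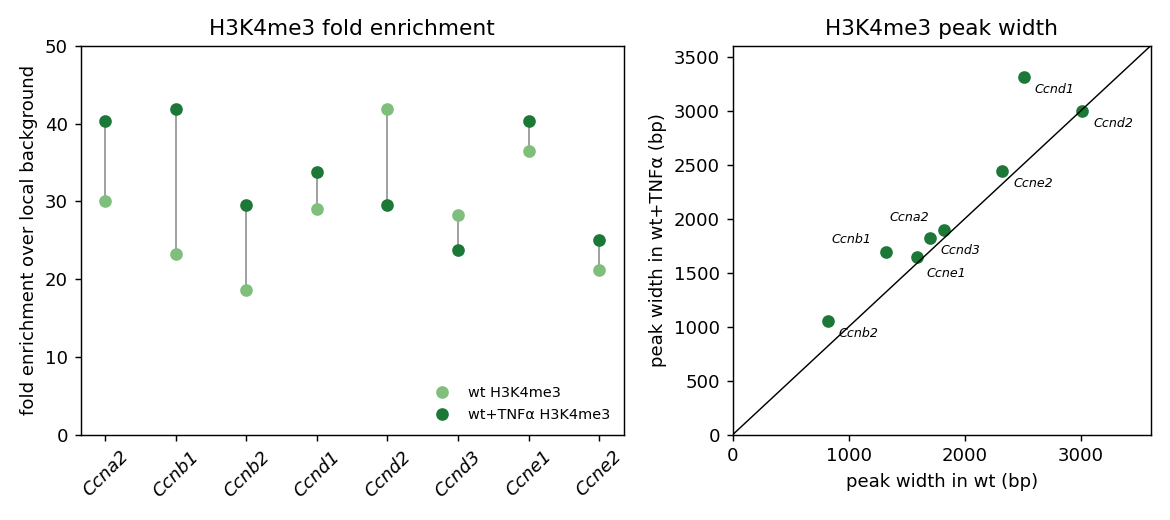
Left, fold enrichment over the local background (y axis) of the H3K4me3 peak at the start of each marked cyclin in wt (light) and wt+TNFα (dark), 1 library each; right, its width in bp in wt (x axis) and wt+TNFα (y axis), with the line of equal width. Fold enrichment at Ccnb1 was 23.2 and 41.9 while that of Ccnd2 was 41.9 and 29.5, and the width of Ccnd1 lies furthest above the line.

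Of the 9 cyclins, H3K27me3 was present at the promoter only at Ccna1, on chr3:55045469-55055501, minus strand. It covered 43.7% of the promoter bases in wt and 76.4% in wt+TNFα, and 52.2% and 84.9% of the gene. In wt the promoter was overlapped by peaks of 4082 bp, with a fold enrichment of 2.24 and a −log10 q of 1.41, and 1450 bp, with 2.1 and 0.704. In wt+TNFα they measured 3474 bp, with 2.38 and 3.83, and 7562 bp, with 1.94 and 1.45. The lowest −log10 q of any H3K27me3 peak was 0.302 in the wt list and 0.747 in the wt+TNFα list. The gain by base at 1 of 1 marked cyclin stands beside 69.8% of the genes with a wt+TNFα H3K27me3 peak, and the loss at 0 of 1 beside 24.1%. The whole wt+TNFα list covered more of the genome (228 against 101 Mb of the autosomes), and the start itself was covered in both. An antisense gene, 4931419H13Rik, shares this promoter.

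With a window of 5000 bp around the reference start, H3K27me3 was found at 2 of 9 cyclins in wt, Ccna1 and Ccnd2, and at 3 in wt+TNFα, with Ccnd3 added. Over all protein-coding genes the shares were 25.5% and 36.8%. At Ccnd2 the H3K27me3 did not reach the promoter and began 3323 bp upstream of the start in wt and 3501 bp in wt+TNFα, just beyond the end of the upstream H3K4me3 peak. In wt it was called as 3 peaks, the nearest of them 8384 bp wide with a fold enrichment of 3.17, and in wt+TNFα as a single peak of 25104 bp with 3.03. These ranked high in their lists, above 95.4% and 97.1% of peaks by fold enrichment. The near border thus differed by 178 bp between the lists, while the gaps between the 3 wt peaks were filled in wt+TNFα.

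Ccnd3 carried H3K27me3 inside the gene, upstream of its marked start. The bases gained in wt+TNFα were mostly intronic, and 3 of the 7 gained stretches also crossed exons, over 175, 128 and 374 bp. H3K27me3 covered 6.44% of the gene in wt, in 3 peaks, and 29.7% in wt+TNFα, in 4 peaks of up to 16406 bp. The nearest peak lay 14558 bp from the marked start in wt and 1245 bp in wt+TNFα. That nearest wt+TNFα peak, of 2813 bp, was weak within its list, with a fold enrichment of 1.78 above 17.7% of peaks and a −log10 q of 0.934.

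**Figure D5:**
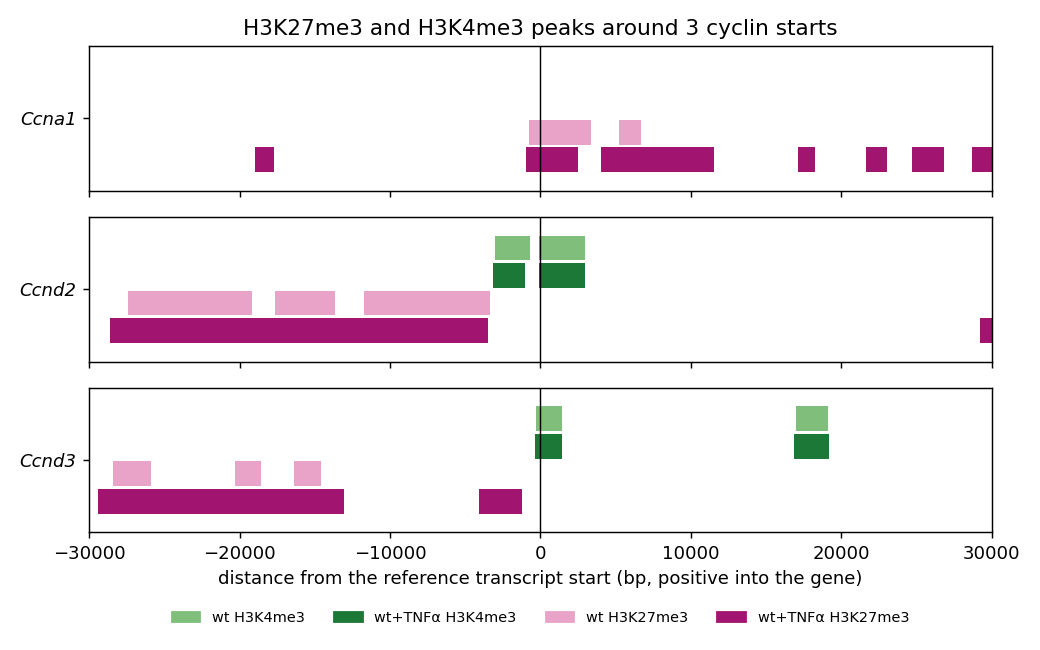
Peaks of the 4 lists within 30000 bp of the reference starts of Ccna1, Ccnd2 and Ccnd3, with distance in bp and positive values running into the gene. H3K27me3 covered the start of Ccna1, ended 3323 bp (wt) and 3501 bp (wt+TNFα) before that of Ccnd2, and came within 14558 and 1245 bp of that of Ccnd3.

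The other 6 cyclins had no H3K27me3 over the gene in either list. At Ccne1 the nearest peak lay 6761 bp upstream in wt and 6555 bp in wt+TNFα. At Ccna2, Ccnb1, Ccnb2, Ccnd1 and Ccne2 the nearest distances ran from 28103 to 249473 bp in wt and from 21927 to 275844 bp in wt+TNFα. Within 5000 bp of the reference start, H3K27me3 was thus called at Ccna1, Ccnd2 and, in wt+TNFα, Ccnd3. This stands beside 25.5% of protein-coding genes in wt and 36.8% in wt+TNFα.

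By the shares of promoter bases under the 4 lists, Ccna1 had no close neighbour among the cyclins, at a distance of 93.5 percentage points from Ccnd3. The most alike were Ccnd2 and Ccne1, 4.54 points apart, followed by Ccna2 and Ccne1 at 7.68 points and Ccnb1 and Ccnd3 at 7.86 points. The measure takes in the size of the promoter regions, which ranged from 2001 bp at Ccnb2 to 7920 bp at Ccnd3.

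The partner kinases all had an H3K4me3 peak in both lists, wider in wt+TNFα at 4 of 4, beside 75.9% of all genes. The share of all genes with a smaller width change was 92.3% for Cdk1, 72.3% for Cdk2, 62.4% for Cdk4 and 89.6% for Cdk6. Cdk1, the partner of the A and B cyclins, measured 1652 bp in wt and 2107 bp in wt+TNFα, and its downstream edge accounted for 542 bp against −87 bp upstream. Cdk2, the partner of the E and A cyclins, measured 1082 and 1285 bp. Cdk4 measured 1241 and 1395 bp and Cdk6 4437 and 4821 bp, the kinases of the D cyclins. None of the 4 carried H3K27me3 at the promoter.

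Across the wider pathway, 64 genes were counted, namely 16 further cyclins, a chosen list that does not hold every cyclin gene, the partner kinases, the enzymes that activate or restrain them, the pocket proteins and E2F factors, parts of the ubiquitin ligases that degrade cyclins, CDK inhibitors and activators of G2 and M genes. The H3K4me3 peak was wider in wt+TNFα at 52 of the 61 with a peak in both lists, or 85.2%, beside 75.9% of all genes. It was narrower at 9, and the median change over the 61 was 178 bp, beside 105 bp over all genes. H3K27me3 lay at the promoter of 7 of the 64 in wt and 8 in wt+TNFα, beside 21.7% and 29.5% of protein-coding genes. The CDK inhibitors had the largest median change of these lists, 378 bp over 6 genes, and were wider at 6 of 6. Among these further cyclins, 10 of 15 were wider and 5 narrower, with a median of 124 bp. Both counts stand beside the same 75.9% of all genes. Ccnb3, a meiotic cyclin, was the gene of the pathway with a mark called in 1 condition alone, H3K27me3 over 64.4% of its promoter in wt+TNFα and 0% in wt. It lies on the X chromosome, where the lists covered 0.597 and 74.7 Mb, so this difference cannot be told apart from that of the chromosome.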

How the data were processed

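H3K4me3 and H3K27me3 ChIP-seq peaks of wt and wt+TNFα colonic organoids were analysed, with 1 library per condition and mark. The reads and the inputs were not used here. The authors aligned reads to GRCm38/mm10 with bwa-mem (BWA 2.2 in the submitters' processing notes), took out duplicate reads with SAMtools 1.11 and blacklisted regions, and used MACS2 with the input as control to call narrow (H3K4me3) and broad (H3K27me3) peaks. The notes and the methods give version 2.1.0, and the reporting summary names another. The name of every list but that of wt+TNFα H3K27me3 refers to a spike-in, which the methods do not describe, so whether and how it scaled the lists is unknown. By the reporting summary, H3K4me3 and input had more total reads in wt+TNFα than in wt, while H3K27me3 had nearly equal totals, and the depth behind a single peak is not given in the sources used here. In each deposited list, fold enrichment is a ratio to the local background, the p-value and q-value of each peak stand as −log10, a score accompanies each peak, and the H3K4me3 lists also give its summit.

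Peaks were converted to 1-based positions, merged within a list and subtracted with bedtools 2.31.1. Genes came from GENCODE release M21, with promoters reaching 1000 bp to either side of any transcript start and an overlap of 1 bp. The reference start was that of the best-supported principal transcript. Where there were several, the longest with an H3K4me3 peak within 1000 bp was taken. Calculations used Python 3.11.15, numpy 2.4.6 and matplotlib 3.10.9. Simulated peak lists held 400 genes with planted wider, narrower, unchanged or new peaks, and the steps recovered 100% of them. This checked the calculation only, because those lists held no noise and no neighbouring peaks. All 9 cyclins were named, with the 4 partner kinases and any pathway gene marked in 1 condition alone. The members and lists were chosen with earlier results of these data known. Of the pathway genes, Skp1 was not matched under that symbol. Alternatives covered promoter size, overlap, transcript starts, filters on −log10 q and whole-peak subtraction.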

Additional observations from a re-analysis of the deposited data

How the results depend on the processing

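Of 65 values under other settings for 12 counts and shares, 46 stayed within 1.5 times the reported count and 19 moved. Every other value of the shares was counted as moved, even 78.6% beside the reported 79.9%. With promoters of 2000 bp on each side, H3K27me3 was counted at 2 cyclins in wt+TNFα, gained at 2 and lost at 1, because Ccnd3 came into reach and Ccna1 lost bases further into the gene. When whole peaks were subtracted, 0 cyclins gained H3K4me3, 0 lost it and 0 gained H3K27me3, since every cyclin peak overlapped one of the other condition. The shares of all protein-coding genes were then 3.65% for H3K4me3 and 32.2% for H3K27me3. With all gene types in place of protein-coding genes, and bases subtracted as reported, they were 78.6% and 74%. An overlap of at least 200 bp left 3 cyclins with a gain and 1 with a loss of H3K4me3. With 1 start per gene, 4 cyclins gained H3K4me3. With the stronger peaks of each list, those past its median −log10 q, 6 cyclins had H3K4me3 in wt and 5 of them in wt+TNFα. Of these 5, 4 gained it and 4 had a wider peak. With H3K27me3 peaks of −log10 q of at least 2, the wt count fell from 1 to 0, so the H3K27me3 of Ccna1 in wt rests on weaker peaks. Counting only peaks at least 200 bp wider left 3 cyclins, beside 28.2% of all genes. A downstream shift of at least 100 bp was met by 5 cyclins, and both this setting and the reported count of 8 were chosen after seeing the data. For the settings of promoter size, overlap, transcript starts, −log10 q and this shift, the share of all genes was not computed. Those counts therefore have no background beside them.

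With 1 library per condition and mark, the spread between cultures is unknown, and a shift of a few bases cannot be told apart from it. For H3K4me3 the wt+TNFα library had more total reads, and the part of depth in the width changes was not tested. Nor was that of the spike-in in the H3K27me3 differences. No paired analysis was possible because no mark had more than 1 library in a condition, and the results come from no test.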
